A study of Mus musculus with 16 samples.

Results

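Fatty acid oxidation genes and targets of the peroxisome proliferator-activated receptors (PPARs) are described here in mouse peritoneal macrophages, as a set of 37 named genes. A gene's probes were those whose name in the scanner files is a listed symbol or its synonym (Eci1 is printed as Dci and Hadh as Hadhsc). All 37 genes had a probe, 56 probes of 41174 on the array, and 36 genes were measured among the 17466 features tested. The exception was Fabp5, a fatty acid binding protein, whose only probe was well above background on 0 of 16 arrays.

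The study asked how lipin-1, a phosphatidate phosphatase, affects gene expression when the lipopolysaccharide (LPS) receptor TLR4 is stimulated. Cells were washed from the peritoneum of male mice of the strain BALB/cByJ-Lpin1fld/J, left to adhere in medium with serum and rinsed, and the attached cells were then kept without serum, either untreated or with 100 ng/ml LPS for 5 h. Control mice were heterozygotes and so carried 1 altered copy of Lpin1, and mutant mice had the fatty liver dystrophy (fld) alteration of that gene. Each of the 4 groups (control untreated, control LPS, fld untreated, fld LPS) held 4 arrays. The mice were 4 controls and 4 mutants, and no label says which mouse gave which array. Lipin-1 is altered in the whole animal and not only in macrophages, and the labels name no age.

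Long-chain fatty acids are joined to coenzyme A by acyl-CoA synthetases, carried across the mitochondrial membranes by the carnitine shuttle, and shortened by a cycle of dehydrogenation, hydration, a further oxidation and thiolytic cleavage. Peroxisomes run a like cycle on very long and branched chains. The nuclear receptors PPARα, PPARδ and PPARγ pair with retinoid X receptors and, helped by the coactivators PGC-1α and PGC-1β, switch on many of these genes, and PPARγ and PPARδ are also known for restraining inflammatory genes and for shaping alternative activation in macrophages.

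Levels are given as log2 of the processed intensity minus the 75th percentile of the same array, so 0 is the level of a fairly bright probe, and levels of different genes are not compared. A change is a difference of group means in log2 units with its standard error (SE) from limma, and it was called when limma's adjusted p (Benjamini-Hochberg over all features) was under 0.05. Replicates of a group correlated at 0.961 to 0.993, the median SD between replicates was 0.19 to 0.26, and each group lay on a slide of its own, so the slide cannot be told apart from the group. In the RNA of a whole culture, fewer cells of a type and less RNA per cell cannot be told apart either. Macrophage markers were measured for 10 of 10 genes. With LPS 2 of them rose and 2 fell in control cells, and 1 rose and 4 fell in cells labelled fld. Csf1r, the receptor for the macrophage growth factor, fell from 5.87 to 4.17 in control cells and from 5.99 to 3.57 in cells labelled fld. Cd14 averaged 8.01 untreated and 9.31 with LPS in control cells, and 8.38 and 9.43 in cells labelled fld. Icam2 averaged 4.01 and 5.00 in control cells, and 4.17 and 4.62 in cells labelled fld. LPS replicate 4 labelled fld stood apart: it had the lowest 75th percentile (an intensity of 189, against up to 627) and the lowest Csf1r (1.87), Adgre1 (4.07), Itgam (1.02), Mertk (-3.27) and Timd4 (-1.44), all macrophage markers. The same array was the lowest of its group for Cpt1a, Cpt2, Crat, Slc25a20, Acadl, Acadm, Acadvl, Acads, Hadh and Hadhb. It was also the lowest for Acaa1a, Acox3, Ech1, Ehhadh, Etfa, Etfdh, Rxra, Acsl1 and Acsl5. It was the highest for Eci1, Ppard, Pparg, Ppargc1a, Ppargc1b, Pdk4, Acsl3 and Angptl4. Sums over markers, in linear units, take only genes with a value on every array. Macrophage markers (6 of 10) summed to 78.5 to 109.8 in untreated control arrays against 57.8 to 71.5 with LPS. In arrays labelled fld they summed to 78.0 to 134 against 23.6 to 73.9. This sum holds Csf1r and leaves out Adgre1, Cd14, Cd68 and Lyz2, so it does not stand for all macrophage markers. B cell markers (5 of 7) summed to 84.3 to 149 in untreated control arrays against 76.8 to 86.0 with LPS, and to 91.6 to 129 against 57.5 to 83.0 in arrays labelled fld, and 0 of the 7 measured rose while 1 and 2 fell. Mast cell markers (5 of 7) summed to 14.3 to 76.9 against 62.1 to 122 in control arrays and to 31.7 to 115 against 41.5 to 122 in arrays labelled fld. The 1 mast cell marker called was Hdc, histidine decarboxylase, which rose from 2.81 to 6.43 and from 3.05 to 5.90. The 4 measured of 7 neutrophil markers summed to 1.45 to 2.78 against 9.01 to 15.9 in control arrays and to 1.47 to 1.94 against 18.9 to 26.7 in arrays labelled fld, with 2 higher and 1 lower in each genotype. S100a8 rose by 3.46 and 4.49 and Mmp8 fell by 2.88 and 1.65, S100a9 changed by -1.39 and 0.77 without a call, and the defining genes Ly6g, Ltf and Ngp were at background. Of 12 mesothelial and fibroblast markers 7 were measured, and the 6 with a value on every array summed to 0.864 to 1.49 and 0.569 to 1.15 in untreated and LPS control arrays against 1.499 to 1.64 and 1.64 to 2.75 in arrays labelled fld. With LPS 3 of the 7 were higher in cells labelled fld, among them the collagen genes Col1a1 (-1.74 against -4.19) and Col1a2 (0.31 against -1.07). The 2 measured of 7 adipocyte markers (Retn and Cidec) summed to 0.131 to 0.175 and 0.185 to 0.2997 in untreated and LPS control arrays against 0.211 to 0.274 and 0.207 to 0.269 in arrays labelled fld, and Adipoq, Plin1, Cfd, Lep and Pnpla3 were not well above background on any array. The part of these other cells, and of that array beyond the values given below, in the results was not tested. On 3 of 4 Lpin1 probes the 2 arrays of replicate 4 labelled fld were far brighter than the other fld arrays, for 1 probe -1.55 and -3.54 against -6.59 to -5.64 on the rest and -4.43 to -3.55 in control arrays. The remaining probe was also brightest on these 2 arrays, at -0.63 and -0.33. It read -2.15 to -1.40 on the other fld arrays and -1.81 to -1.30 in control arrays. Where the probes lie relative to the lesion is unknown here, so the group is called labelled fld. Results are also given without the 2 arrays of replicate 4 labelled fld where a call changes.

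With LPS, more of these genes fell than rose in both genotypes. In control cells 13 of the 36 fell and 3 rose, and in cells labelled fld 16 fell and 3 rose. Over all features 29.4% were called in control cells (14.5% higher and 14.9% lower) and 39.6% in cells labelled fld (21.6% higher and 18% lower). The calls made up 44.4% and 52.8% of the measured members. Their median change was -0.20 in control cells and -0.28 in cells labelled fld, where the median of all features was 0.03 and 0.06. Of the members, 12 were lower in both genotypes: Cpt1a, Acadm, Hadh, Acaa2, Acaa1a, Acox3, Ehhadh, Ech1, Ppara, Pparg, Ppargc1b and Ucp2. Acsl4 was the 1 gene higher in both. Of the rest, 1 (Pdk4) was called lower in control cells alone, 4 (Cpt2, Acadl, Decr1 and Etfdh) lower in cells labelled fld alone, 2 (Acsl1 and Acsl5) higher in control cells alone and 2 (Slc25a20 and Ppard) higher in cells labelled fld alone, and 14 were called in neither. Pdk4, Ppara and Decr1 were kept only because an untreated group was well above background, a filter that favours a fall for them. Their falls are therefore no support for the direction of the set. No difference between the 2 responses was called for any member or for any other feature (background 0%). At an unadjusted p under 0.05, limma gave 3 members (Acsl1, Pdk4 and Ppard) and 9.33% of all features. The plot of LPS changes by role shows every measured member.

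**Figure D1:**
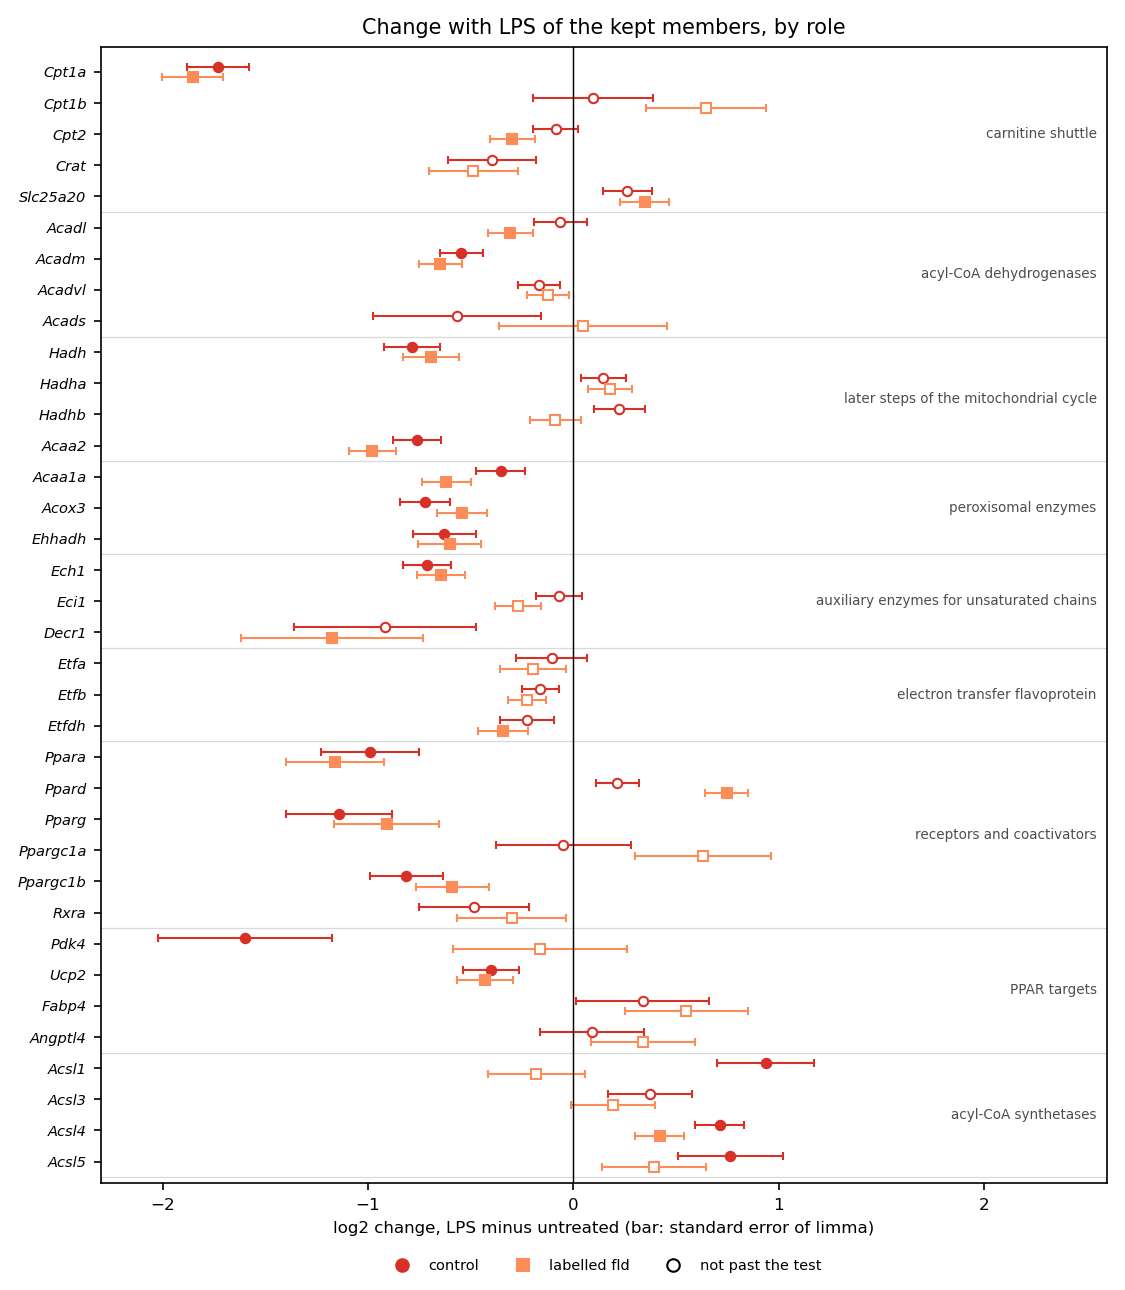
Change with LPS (log2, LPS minus untreated) of the 36 measured genes, grouped by role, in control cells (circles) and cells labelled fld (squares); bars are the standard error of limma and open symbols did not pass the test. Cpt1a lies farthest to the left in both genotypes (-1.73 and -1.85), the 3 peroxisomal genes are lower in both, and the acyl-CoA synthetase genes lie mostly to the right.

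The carnitine shuttle was led by Cpt1a, which makes the acylcarnitines that enter mitochondria and is the controlled step of the pathway. Its 60-base probe lies on chromosome 19 at 3280180 to 3280239 in the coordinates of the scanner files, which name no genome build. In untreated control arrays, replicates 1 to 4 read 1.41, 0.97, 1.34 and 1.38, and with LPS -0.26, -0.47, -0.62 and -0.48. Arrays labelled fld read 1.83, 1.76, 1.09 and 1.58 untreated and -0.33, -0.28, -0.19 and -0.36 with LPS. Every LPS array was thus far below every untreated array in both genotypes. Cpt1a fell by 1.73 (SE 0.15, limma adjusted p = 1.21e-06) to 0.301 of the untreated level in control cells, and by 1.85 (SE 0.15, adjusted p = 6.44e-07) to 0.276 in cells labelled fld. A second Cpt1a probe changed by -1.82 and -1.91. The genotypes did not differ in this fall beyond the error, with a difference of -0.12 (SE 0.21).

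Cpt2, the inner membrane enzyme that returns acyl groups to coenzyme A, read 2.34, 2.31, 2.41 and 2.30 in untreated and 2.37, 2.22, 2.10 and 2.32 in LPS control arrays, groups that overlap. In arrays labelled fld it read 2.48, 2.70, 2.53 and 2.48 untreated and 2.32, 2.22, 2.49 and 1.96 with LPS, with LPS replicate 4 lowest and replicate 3 among the untreated values. Cpt2 fell by 0.30 in cells labelled fld (SE 0.11, limma adjusted p = 0.0438) and changed by -0.09 in control cells (adjusted p = 0.602). The fld call ended without any 1 of 13 of the 16 arrays, all but control LPS replicates 1 and 3 and fld LPS replicate 3 (adjusted p 0.0502 to 0.132). Without the 2 arrays of replicate 4 labelled fld the Cpt2 change was -0.22 (adjusted p = 0.131). Slc25a20, the carnitine-acylcarnitine exchanger of the inner membrane, read -0.44, -0.31, -0.27 and -0.42 in untreated and 0.33, -0.14, -0.02 and -0.21 in LPS arrays labelled fld, without overlap. In control arrays it read -0.45, -0.33, -0.12 and -0.23 untreated and -0.17, -0.03, -0.01 and 0.14 with LPS, where the lowest LPS array lay below the highest untreated one. Slc25a20 rose by 0.35 in cells labelled fld (SE 0.12, limma adjusted p = 0.0327), and its change was 0.26 in control cells (adjusted p = 0.118). That rise was not called without fld untreated replicate 1, 2 or 4 or fld LPS replicate 1 or 3 (adjusted p 0.0501 to 0.0986), and it was 0.11 (adjusted p = 0.651) with each array centred on its median. Crat, the carnitine acetyltransferase for short chains, changed by -0.40 (adjusted p = 0.188) and -0.49 (adjusted p = 0.0842). The Crat fall in control cells was called without fld LPS replicate 4 (adjusted p = 0.0419), and in cells labelled fld without fld LPS replicate 1 (-0.66, 0.0249) or 3 (-0.62, 0.0379). Cpt1b, the muscle form of the first enzyme, changed by 0.10 and 0.65 with LPS (limma adjusted p = 0.843 and 0.0919); the fld change passed once fld untreated replicate 4 was dropped (0.84, adjusted p = 0.0428).

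Among the acyl-CoA dehydrogenases, which take the first hydrogens off chains of a given length, only the medium-chain enzyme gene Acadm was called in both genotypes. Its probe lies on chromosome 3 at 153833272 to 153833331. Acadm read 2.81, 3.04, 3.02 and 3.07 untreated and 2.43, 2.39, 2.54 and 2.39 with LPS in control arrays, and 2.67, 2.96, 2.71 and 2.94 against 2.31, 2.10, 2.30 and 1.99 in arrays labelled fld. No LPS array reached an untreated one. Acadm fell by 0.55 (SE 0.10, limma adjusted p = 0.00111) in control cells and by 0.65 (SE 0.10, adjusted p = 0.000275) in cells labelled fld. Acadl, the long-chain enzyme, was flagged by the scanner and left out on 1 array each of untreated (replicate 1) and LPS (replicate 3) control cells, whose other arrays read 1.06, 1.12 and 0.94 untreated and 1.12, 0.82 and 0.99 with LPS. Acadl in arrays labelled fld read 1.16, 1.29, 1.22 and 1.03 untreated and 0.97, 0.81, 1.04 and 0.67 with LPS, and the groups met only at the highest LPS array. Acadl fell by 0.31 in cells labelled fld (SE 0.11, limma adjusted p = 0.0416) and changed by -0.06 in control cells (adjusted p = 0.76). Its call ended without control untreated replicate 2, control LPS replicate 4, fld untreated replicates 1, 2 or 3, or fld LPS replicates 2 or 4 (adjusted p 0.0535 to 0.112), and the change was -0.29 (adjusted p = 0.0767) without both arrays of replicate 4 labelled fld. Acadvl, for very long chains, changed by -0.17 and -0.12 and was called in neither.

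Acads, the short-chain dehydrogenase, rested on 1 array. In control arrays it read -0.71, -0.49, -0.46 and -0.35 untreated and -0.97, -1.21, -1.13 and -0.97 with LPS, which do not overlap. In arrays labelled fld it read -0.05, 0.25, -0.04 and -2.35 untreated and -0.28, -0.54, -0.22 and -0.97 with LPS. Untreated replicate 4, 1 of the 2 arrays with Lpin1 signal, lay below all 15 others. With all arrays the Acads changes were -0.57 in control cells (SE 0.41, limma adjusted p = 0.33) and 0.05 in cells labelled fld (adjusted p = 0.937). Without fld untreated replicate 4, Acads fell by 0.57 in control cells (adjusted p = 0.0126) and by 0.55 in cells labelled fld (adjusted p = 0.0198), and it was higher in LPS cells labelled fld than in LPS control cells (0.57, adjusted p = 0.0191). Without both arrays of replicate 4 labelled fld the Acads changes were -0.57 (adjusted p = 0.0021) and -0.40 (adjusted p = 0.0371), and the genotypes differed by 0.55 untreated (adjusted p = 0.0202) and 0.72 with LPS (adjusted p = 0.00227).

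The later steps of the mitochondrial cycle divided. Hadh, the medium and short chain hydroxyacyl-CoA dehydrogenase, read 0.59, 0.45, 0.88 and 0.88 untreated and 0.03, -0.14, -0.07 and -0.17 with LPS in control arrays. Arrays labelled fld read 0.68, 0.76, 0.34 and 0.94 against -0.13, 0.11, 0.13 and -0.17. The groups did not overlap in either genotype. Hadh fell by 0.78 (SE 0.14, limma adjusted p = 0.000559) and by 0.69 (SE 0.14, adjusted p = 0.00125). Acaa2, the mitochondrial thiolase that cleaves off acetyl-CoA, read 1.66, 1.48, 1.91 and 1.75 untreated and 0.89, 0.999, 0.95 and 0.93 with LPS in control arrays, and 1.68, 1.94, 1.68 and 2.14 against 0.96, 0.81, 0.94 and 0.81 in arrays labelled fld. All 8 LPS arrays lay at or below 0.999 and all 8 untreated arrays at or above 1.48. Acaa2 fell by 0.76 (SE 0.12, limma adjusted p = 0.000183) and by 0.98 (SE 0.12, adjusted p = 1.86e-05). Hadha and Hadhb, the subunits of the trifunctional protein that serves long chains, were called in neither genotype, with changes of 0.15 and 0.18 for Hadha and of 0.22 and -0.09 for Hadhb.

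All 3 peroxisomal members fell in both genotypes. Acox3, an acyl-CoA oxidase for branched chains, read 1.57, 1.63, 1.89 and 1.71 untreated and 0.96, 0.98, 0.93 and 1.04 with LPS in control arrays, and 1.29, 1.59, 1.29 and 1.61 against 0.95, 0.93, 1.14 and 0.60 in arrays labelled fld. The LPS arrays were below the untreated ones without exception. Acox3 fell by 0.72 (SE 0.12, limma adjusted p = 0.000413) and by 0.54 (SE 0.12, adjusted p = 0.00296). Acaa1a, the peroxisomal thiolase, read 5.14, 4.87, 5.25 and 5.02 against 4.86, 4.77, 4.52 and 4.70 in control arrays and 5.20, 5.24, 5.03 and 5.05 against 4.49, 4.58, 4.74 and 4.23 in arrays labelled fld. Its control groups nearly touched, and its fld groups were well apart. Acaa1a fell by 0.35 in control cells (SE 0.12, limma adjusted p = 0.0385) and by 0.62 in cells labelled fld (SE 0.12, adjusted p = 0.00119). The control call ended without control untreated replicate 1, 3 or 4 or control LPS replicate 2, 3 or 4 (adjusted p 0.0562 to 0.113). Ehhadh, the bifunctional enzyme of the peroxisomal cycle and a classical PPARα target, read -2.56, -2.56, -2.41 and -2.32 against -2.99, -3.37, -2.80 and -3.20 in control arrays, and -3.10, -2.77, -2.91 and -2.40 against -3.20, -3.50, -3.33 and -3.57 in arrays labelled fld. The groups did not overlap. Ehhadh fell by 0.63 (SE 0.15, limma adjusted p = 0.00613) and by 0.60 (SE 0.15, adjusted p = 0.00671). It is a dim probe, and with the normexp background its changes were -0.20 (adjusted p = 0.232) and 0.047 (adjusted p = 0.75). The fld call also ended without the 2 arrays of replicate 4 labelled fld (-0.42, adjusted p = 0.052).

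**Figure D2:**
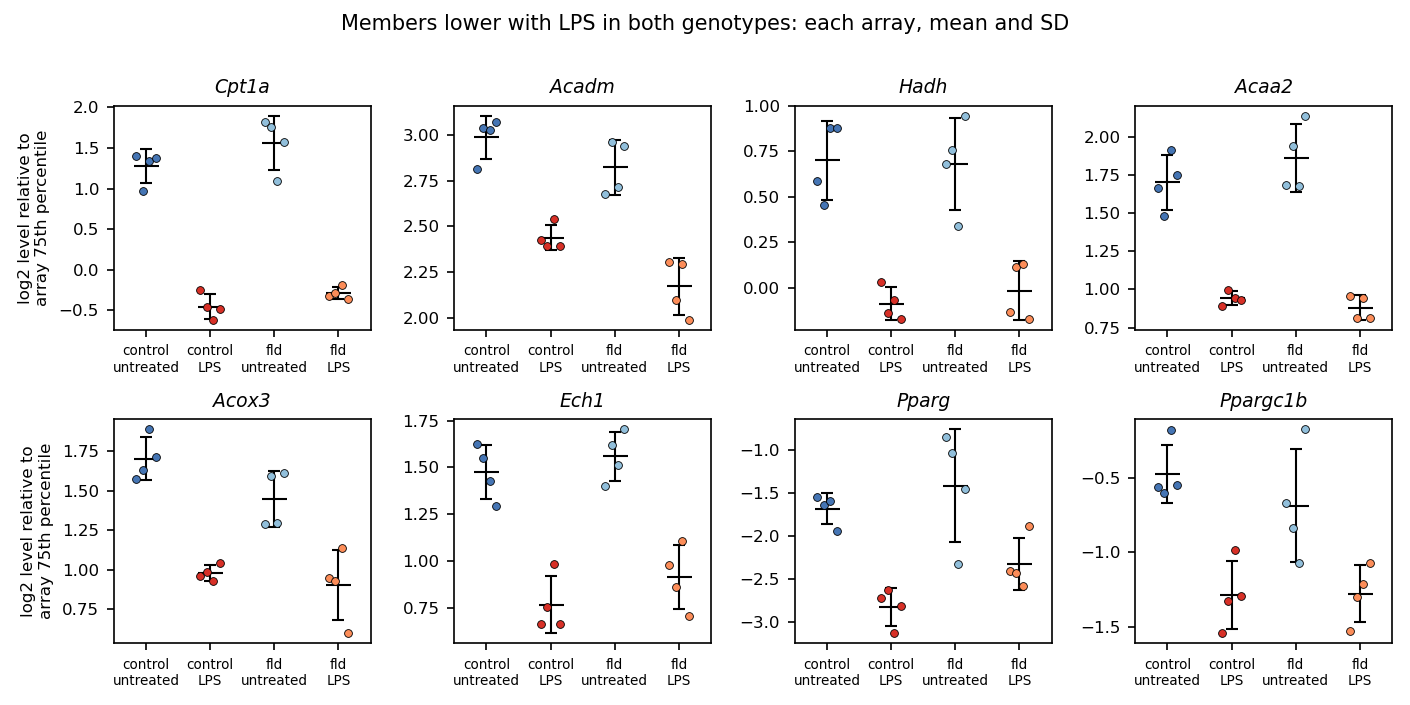
Log2 level relative to the array's 75th percentile of 8 genes that were lower with LPS in both genotypes, with a point for each of the 4 arrays of a group and the mean and SD as a black line and bar. For Cpt1a, Acadm, Hadh, Acaa2, Acox3, Ech1 and Ppargc1b no LPS array reaches an untreated array of its genotype, and Pparg overlaps only in arrays labelled fld.

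Enzymes that prepare unsaturated chains were represented by Ech1, Eci1 and Decr1. Ech1, a dienoyl-CoA isomerase, read 1.63, 1.55, 1.43 and 1.30 untreated and 0.66, 0.76, 0.98 and 0.66 with LPS in control arrays, and 1.40, 1.62, 1.51 and 1.70 against 0.98, 0.86, 1.11 and 0.70 in arrays labelled fld. The LPS arrays were lower throughout. Ech1 fell by 0.71 (SE 0.12, limma adjusted p = 0.000334) and by 0.65 (SE 0.12, adjusted p = 0.000643). Decr1, a dienoyl-CoA reductase, was well above background on all 4 untreated control arrays, on 1 LPS control array, on 2 untreated and on 0 LPS arrays labelled fld. Its levels were -4.74, -4.71, -4.85 and -4.67 against -5.82, -6.45, -4.19 and -6.17 in control arrays, and -5.18, -4.53, -5.12 and -4.77 against -7.30, -5.27, -5.76 and -5.96 in arrays labelled fld. LPS control replicate 3 lay above its whole untreated group, and the fld groups did not overlap. The fitted fall of 1.18 in cells labelled fld (SE 0.44, limma adjusted p = 0.0461) ended without any 1 of 12 arrays, all but control LPS replicates 2 and 3 and fld LPS replicates 2 and 3 (adjusted p 0.0505 to 0.143), and turned to 0.35 with the normexp background. Without both arrays of replicate 4 labelled fld it was -1.17 (adjusted p = 0.119). In control cells the change was -0.92 (adjusted p = 0.137), and -1.41 (adjusted p = 0.00813) without control LPS replicate 3. Eci1, an enoyl-CoA isomerase, changed by -0.07 and -0.27 (adjusted p = 0.697 and 0.0666), and its fld fall was called without fld LPS replicate 4 (-0.34, adjusted p = 0.0318).

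The electron transfer flavoprotein passes electrons from the dehydrogenases to the respiratory chain. Its subunit genes were called in neither genotype, with changes of -0.10 and -0.20 for Etfa, which was missing on control LPS replicate 3, and of -0.16 and -0.22 for Etfb. The Etfb fall in cells labelled fld passed when fld LPS replicate 3 (-0.26, adjusted p = 0.0446) or untreated replicate 1 of the same genotype (-0.27, adjusted p = 0.0497) was dropped. Etfdh, the membrane oxidoreductase that takes the electrons on, read 1.74, 1.79 and 1.72 on untreated control replicates 1, 3 and 4, replicate 2 being flagged, and 1.47, 1.49, 1.53 and 1.61 with LPS, which do not overlap. Arrays labelled fld read 1.84, 2.13, 1.99 and 1.79 untreated and 1.78, 1.52, 1.82 and 1.26 with LPS, which do. Etfdh fell by 0.34 in cells labelled fld (SE 0.12, limma adjusted p = 0.039) and changed by -0.22 in control cells (adjusted p = 0.227). Dropping fld untreated replicate 2 or 3 or fld LPS replicate 2 or 4 ended the call (adjusted p 0.0804 to 0.119), as did leaving out both arrays of replicate 4 labelled fld (-0.28, adjusted p = 0.0743).

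Of the 6 receptor and coactivator genes, 3 fell in both genotypes, among them Ppara, for which the filter favours a fall. Of all features, 14.9% were called lower in control cells and 18% in cells labelled fld. Pparg, which encodes PPARγ, has its probe on chromosome 6 at 115515909 to 115515968. It read -1.55, -1.65, -1.60 and -1.95 untreated and -2.73, -2.64, -3.13 and -2.82 with LPS in control arrays, and -0.85, -1.04, -2.33 and -1.46 against -2.41, -2.43, -2.58 and -1.89 in arrays labelled fld. The control groups were far apart, while untreated fld replicate 3 lay among the LPS arrays. Pparg fell by 1.14 (SE 0.26, limma adjusted p = 0.00352) to 0.453 of the untreated level in control cells and by 0.91 (SE 0.26, adjusted p = 0.0119) to 0.533 in cells labelled fld. The fld call ended with the normexp background (-0.42, adjusted p = 0.0994) and with only the 2 groups compared (adjusted p = 0.0561). Ppara, which encodes PPARα, was dim. It read -4.30, -3.62, -3.55 and -4.02 against -4.26, -5.19, -5.01 and -5.00 in control arrays, where LPS replicate 1 reached the untreated range, and -3.84, -3.48, -3.89 and -4.28 against -4.55, -5.35, -5.20 and -5.04 in arrays labelled fld, without overlap. With LPS it was well above background on 2 of 4 control and 1 of 4 fld arrays. The fitted Ppara changes were -0.99 (SE 0.24, limma adjusted p = 0.00559) and -1.16 (SE 0.24, adjusted p = 0.00169). With the normexp background they were -0.05 (adjusted p = 0.85) and 0.20 (adjusted p = 0.336). Ppargc1b, which encodes PGC-1β, read -0.56, -0.61, -0.18 and -0.55 against -1.54, -1.33, -0.99 and -1.29 in control arrays and -0.67, -0.84, -1.07 and -0.18 against -1.53, -1.30, -1.21 and -1.08 in arrays labelled fld. Both pairs of groups were apart, by little in arrays labelled fld. Ppargc1b fell by 0.81 (SE 0.18, limma adjusted p = 0.00301) and by 0.59 (SE 0.18, adjusted p = 0.017), and its other 2 probes changed by -1.34 and -0.92 in control cells and by -0.90 and -1.03 in cells labelled fld. The fld call ended when either fld untreated replicate 4 (-0.42, adjusted p = 0.0534) or LPS replicate 1 of that genotype (-0.51, adjusted p = 0.0503) was dropped, and with the normexp background (-0.34, adjusted p = 0.0538). Rxra, the retinoid X receptor that pairs with the PPARs, was called in neither genotype (-0.48 and -0.30), and its 2 probes disagreed, the dimmer one changing by -0.06 and 0.39.

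Promoter windows are shown for Cpt1a, Acadm and Pparg because these are the 3 genes, among the 10 with a window of the 12 that fell in both genotypes, whose window holds the sequence AGGTCA, the core to which PPARs and other nuclear receptors bind. The windows come from RefSeq (GRCm38.p6) and run from 250 bases before to 50 bases from the gene start, 5′ to 3′ on the strand of the gene. The capitals mark AGGTCA, or TGACCT where it lies on the opposite strand. Pparg has 2 such windows, for 2 of its starts. In order, they lie at chr19:3323051-3323350 (plus strand), chr3:153944594-153944893 (minus strand), chr6:115360894-115361193 and chr6:115362099-115362398 (both plus strand).
Cpt1a: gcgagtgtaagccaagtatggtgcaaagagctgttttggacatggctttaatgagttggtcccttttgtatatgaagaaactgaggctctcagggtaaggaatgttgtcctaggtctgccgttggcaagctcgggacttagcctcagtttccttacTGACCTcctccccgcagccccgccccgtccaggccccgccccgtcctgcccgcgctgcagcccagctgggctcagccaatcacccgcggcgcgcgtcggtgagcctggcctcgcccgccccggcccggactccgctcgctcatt
Acadm: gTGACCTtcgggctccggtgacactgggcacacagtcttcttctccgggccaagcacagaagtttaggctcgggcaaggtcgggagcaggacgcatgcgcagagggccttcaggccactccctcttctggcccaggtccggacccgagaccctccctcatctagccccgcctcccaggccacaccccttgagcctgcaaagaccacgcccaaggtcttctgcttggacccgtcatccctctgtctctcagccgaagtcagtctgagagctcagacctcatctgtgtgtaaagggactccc
Pparg, first window: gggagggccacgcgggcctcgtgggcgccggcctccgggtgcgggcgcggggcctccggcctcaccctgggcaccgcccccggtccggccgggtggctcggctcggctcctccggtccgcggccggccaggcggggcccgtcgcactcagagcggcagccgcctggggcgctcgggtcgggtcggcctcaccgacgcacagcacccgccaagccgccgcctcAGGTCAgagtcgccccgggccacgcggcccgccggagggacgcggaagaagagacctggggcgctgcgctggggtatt
Pparg, second window: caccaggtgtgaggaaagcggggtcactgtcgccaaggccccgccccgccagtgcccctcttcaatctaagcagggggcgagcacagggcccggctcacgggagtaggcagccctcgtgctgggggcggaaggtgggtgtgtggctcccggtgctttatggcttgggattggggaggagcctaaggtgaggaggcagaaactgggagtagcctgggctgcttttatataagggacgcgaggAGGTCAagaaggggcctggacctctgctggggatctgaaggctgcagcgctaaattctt
The core lies at -94 to -89 from the gene start in Cpt1a, at -249 to -244 in Acadm, and at -28 to -23 and -9 to -4 in the Pparg windows. The RefSeq table held windows for 29 of the 37 genes, 33 windows in all. Searched on both strands, AGGTCA was in 5 of the 29 genes (also Acadvl and Rxra), and in 6 of 33 windows, against 16.3% of all 32851 windows. The paired form that PPARs bind, AGGTCANAGGTCA, was in 0 of the 29 genes and in 0.0396% of all windows, and the extended form TCAAGGTCA, bound by estrogen-related receptors, in 0 of the 29 and in 0.423%. Both longer forms contain AGGTCA. These are matches of letters in a short window and show neither binding nor its absence.

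Among the other PPAR targets, Pdk4 and Ucp2 had calls. Pdk4, the kinase that shuts off pyruvate dehydrogenase and so favours fat as fuel, read -4.84, -4.49, -4.11 and -3.75 in untreated and -5.06, -7.11, -5.94 and -5.48 in LPS control arrays, where it was well above background on 0 of 4. In arrays labelled fld it read -4.85, -4.26, -4.32 and -4.60 untreated and -4.65, -4.36, -5.79 and -3.87 with LPS, groups that overlap widely. In control cells the fitted fall of Pdk4 was called (limma adjusted p = 0.0104). A bound set by the lowest signal above background on each LPS array puts the fall at 1.65-fold or more. This bound was not itself tested and holds only for the background correction of the deposited intensities. In cells labelled fld Pdk4 was well above background on 4 of 4 untreated and 1 of 4 LPS arrays, and its fitted change was not called (adjusted p = 0.785). With the normexp background the control change was -0.06 (adjusted p = 0.854). Ucp2, an uncoupling protein of the inner membrane, read 1.04, 1.17, 1.56 and 1.35 against 0.79, 0.62, 1.25 and 0.86 in control arrays, which overlap, and 1.19, 1.26, 1.03 and 1.01 against 0.76, 0.62, 0.71 and 0.68 in arrays labelled fld, which do not. Ucp2 fell by 0.40 (SE 0.14, limma adjusted p = 0.0376) and by 0.43 (SE 0.14, adjusted p = 0.0218). The control call ended without control untreated replicate 3 or 4 or control LPS replicate 1, 2 or 4 (adjusted p 0.0801 to 0.125), and the fld call without fld untreated replicate 1 or 2 or fld LPS replicate 2 (0.0505 to 0.0663). Of the other 2 Ucp2 probes, 1 changed by -0.37 and -0.24 and the other by 0.22 and 0.17. With the mean over its probes Ucp2 was called in neither genotype (-0.18 and -0.17, limma adjusted p = 0.313 for each). The control call also ended with median centring or the deposited value table (adjusted p = 0.106). It ended too with no filter on dim probes (adjusted p = 0.0753) and with only the 2 groups compared (adjusted p = 0.0992). Fabp4, a fatty acid binding protein of macrophages and fat cells that was missing on control LPS replicate 1, changed by 0.34 and 0.55 (adjusted p = 0.475 and 0.155). Angptl4, a secreted inhibitor of lipoprotein lipase, changed by 0.09 and 0.34 (adjusted p = 0.83 and 0.303).

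The acyl-CoA synthetases activate fatty acids both for oxidation and for storage and membrane lipids. In control cells they went the other way: 3 of 4 rose, where 14.5% of all features were called higher. In cells labelled fld 1 of 4 rose (25%), near the 21.6% of all features called higher. Acsl1 read 3.37, 3.18, 3.69 and 2.96 untreated and 4.63, 4.29, 3.69 and 4.35 with LPS in control arrays, replicate 3 being the highest of the former and the lowest of the latter. In arrays labelled fld it read 3.74, 3.62, 3.61 and 3.49 untreated and 3.37, 3.73, 3.89 and 2.76 with LPS, with LPS values on both sides of the untreated ones. Acsl1 rose by 0.94 in control cells (SE 0.24, limma adjusted p = 0.00766), a 1.91-fold rise, and changed by -0.18 in cells labelled fld (adjusted p = 0.569). Its other 2 probes changed by 0.98 and 1.12 in control cells and by 0.19 and 0.28 in cells labelled fld. The difference between the responses, -1.12 (SE 0.34), did not pass (adjusted p = 0.287). Acsl4, which prefers arachidonate, read 4.84, 5.03, 4.59 and 4.99 against 5.61, 5.59, 5.38 and 5.73 in control arrays and 5.22, 5.30, 5.31 and 4.93 against 5.69, 5.53, 5.55 and 5.67 in arrays labelled fld. The LPS arrays were higher throughout. Acsl4 rose by 0.71 (SE 0.12, limma adjusted p = 0.000423) and by 0.42 (SE 0.12, adjusted p = 0.0128), and a second probe changed by 0.98 and 1.01. The fld rise of the first probe was 0.18 (adjusted p = 0.328) under median centring and 0.31 (adjusted p = 0.0797) without the 2 arrays of replicate 4 labelled fld. It was 0.27 (adjusted p = 0.106) with quantile normalization and 0.32 (adjusted p = 0.0524) with the normexp background. Acsl5 read 2.91, 2.77, 3.12 and 2.99 against 3.88, 3.38, 3.96 and 3.62 in control arrays, which are apart, and 2.97, 3.04, 2.86 and 2.88 against 3.99, 3.17, 3.75 and 2.41 in arrays labelled fld, where LPS replicate 4 alone was below the untreated arrays. Acsl5 rose by 0.76 in control cells (SE 0.25, limma adjusted p = 0.0339) and changed by 0.39 in cells labelled fld (adjusted p = 0.232). The control call ended without control untreated replicate 1, 2 or 4 or control LPS replicate 1, 3 or 4 (adjusted p 0.0576 to 0.0837). Without fld LPS replicate 4 the fld rise was 0.70 (adjusted p = 0.00855), and without both arrays of that replicate 0.68 (adjusted p = 0.0206). Acsl3 changed by 0.37 and 0.19 and was called in neither, though its control rise was called without control LPS replicate 1 (0.56, adjusted p = 0.0348).

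**Figure D3:**
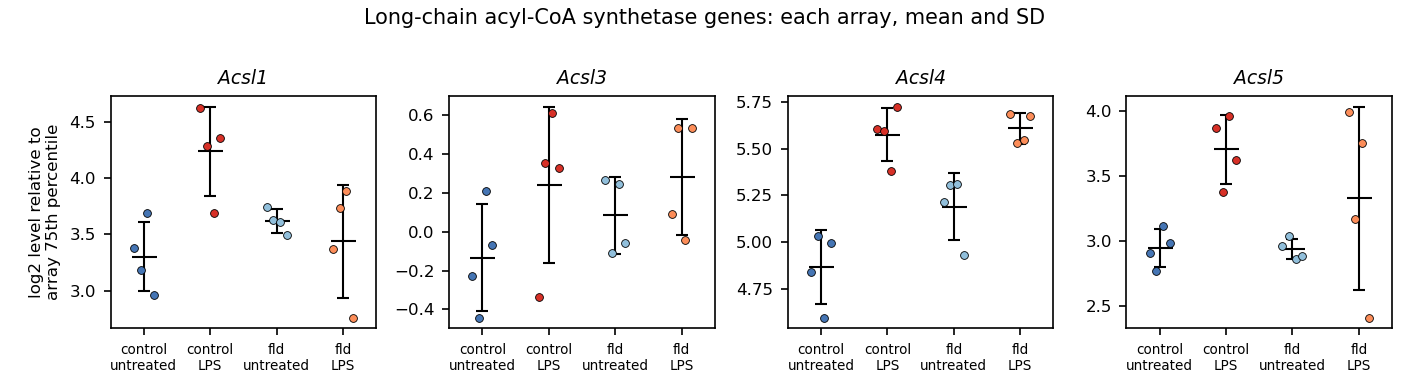
Log2 level relative to the array's 75th percentile of the 4 acyl-CoA synthetase genes on each array, with the group mean and SD as a black line and bar. In control cells Acsl1, Acsl4 and Acsl5 are higher with LPS on every array, and in arrays labelled fld LPS replicate 4 is the lowest point for Acsl1 (2.76) and Acsl5 (2.41).

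The mean over the measured genes was also taken per array, with flagged values left out. Control arrays thus do not all average the same genes. Untreated replicate 1 lacks Acadl and untreated replicate 2 lacks Etfdh. LPS replicate 1 lacks Fabp4, and LPS replicate 3 lacks Acadl and Etfa. On the other LPS control arrays Fabp4 read 3.70 to 4.16, far above the mean of 0.46 on LPS replicate 1. The part of these gaps in the control values was not tested. In control cells the mean was 0.75 ± 0.07 untreated against 0.44 ± 0.04 with LPS (SD, n = 4 each). In cells labelled fld it was 0.85 ± 0.09 untreated against 0.59 ± 0.06 with LPS (SD, n = 4 each). Untreated control arrays lay between 0.69 and 0.84 and LPS control arrays between 0.40 and 0.49. Untreated arrays labelled fld lay between 0.78 and 0.97, and LPS arrays between 0.50 and 0.64. The untreated and LPS arrays of a genotype did not overlap. For single features, 33.2% of all in control cells and 37.7% in cells labelled fld had groups that do not overlap (16.6% higher and 16.6% lower, and 20.9% higher and 16.7% lower). Of the 36 members, 3 were apart upwards and 14 downwards in control cells, and 4 and 12 in cells labelled fld. The downward ones include Pdk4 in control cells, and Ppara and Decr1 in cells labelled fld. The filter favours a fall for these genes, which are also in the means above. Their part in the means and counts is therefore no support for the direction of the set.

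Between genotypes few of these genes differed. Without LPS, 1 of the 36 was called, Ppard, where 5.08% of all features were called (4.87% higher and 0.212% lower in cells labelled fld). With LPS 4 were called, 3 higher and 1 lower in cells labelled fld, where 17% of all features were called (16.1% higher and 0.916% lower). The member shares, 2.78% and 11.1%, lay below these backgrounds. The genotype groups did not overlap for 5 members without LPS, all higher in arrays labelled fld (15.7% of all features, 13.3% higher and 2.43% lower), and for 4 higher and 1 lower with LPS (20.3% of all features, 17.7% higher and 2.6% lower). Calls of a higher level in cells labelled fld were concentrated among dim features: with LPS they made up 39.1%, 20.8%, 3.76% and 0.595% of 4 equal bins of features ordered from dimmest to brightest, and without LPS 13.4%, 4.65%, 0.687% and 0.687%. The part of signal level in the genotype results was not tested.

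Ppard, which encodes PPARδ, the PPAR most widely expressed across tissues, has its probe on chromosome 17 at 26486311 to 26486370 and is in the dimmest bin. It read -3.54, -3.66, -3.69 and -3.39 in untreated and -3.30, -3.29, -3.41 and -3.41 in LPS control arrays. Arrays labelled fld read -2.88, -3.17, -3.25 and -3.11 untreated and -2.39, -2.32, -2.50 and -2.21 with LPS. Every array labelled fld was above every control array, and the LPS arrays labelled fld stood above all others. Ppard was higher in cells labelled fld by 0.47 without LPS (SE 0.10, limma adjusted p = 0.018) and by 0.998 with LPS (SE 0.10, adjusted p = 7.82e-05), a 2.00-fold level. With LPS it rose by 0.75 in cells labelled fld (SE 0.10, adjusted p = 7.84e-05) and changed by 0.22 in control cells (adjusted p = 0.137), and the difference of 0.53 (SE 0.15) did not pass (adjusted p = 0.25). The call without LPS ended without control untreated replicate 2 or 3 or fld untreated replicate 1 (adjusted p 0.0612 to 0.0749). It also ended with median centring or the deposited value table (0.29, adjusted p = 0.159), quantile normalization (0.28, adjusted p = 0.0947), the normexp background (0.35, adjusted p = 0.366), a mean-variance trend (adjusted p = 0.0638) and the 75th percentile over probes detected on all arrays (0.43, adjusted p = 0.0506). Without the 2 arrays of replicate 4 labelled fld the differences were 0.47 (adjusted p = 0.0261) and 0.95 (adjusted p = 0.000403).

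Ppargc1a and Cpt1b were higher in LPS cells labelled fld, each on 1 of 2 probes. Ppargc1a, which encodes PGC-1α, is in the dimmest bin, and its kept probe (chromosome 5, 50828808 to 50828867) was designed on a cDNA clone, while the probe to its RefSeq transcript was well above background on 0 of 16 arrays. The kept probe read -3.55, -3.87, -3.84 and -3.79 in untreated and -3.17, -3.38, -4.94 and -3.77 in LPS control arrays. Untreated arrays labelled fld read -2.50, -2.96, -2.49 and -2.74, and those with LPS -2.17, -2.40, -2.42 and -1.18. All arrays labelled fld lay above all control arrays, with LPS replicate 4 labelled fld the highest. Ppargc1a was higher by 1.77 with LPS (SE 0.33, limma adjusted p = 0.0017), and the difference was 1.09 without LPS (adjusted p = 0.0721). The latter passed without control LPS replicate 3 (adjusted p = 0.0144) or fld LPS replicate 4 (adjusted p = 0.0266), which lie outside that comparison and alter only the shared spread. Without control LPS replicate 3 its rise with LPS in cells labelled fld (0.63) was also called (adjusted p = 0.0456). Without the 2 arrays of replicate 4 labelled fld the LPS difference was 1.49 (adjusted p = 0.00717).

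Cpt1b, with its probe on chromosome 15 at 89499336 to 89499395 and in the bin next to the dimmest, read -0.85, -1.45, -1.52 and -1.16 in untreated and -0.97, -0.71, -1.68 and -1.24 in control arrays with LPS. Arrays labelled fld read -0.36, -0.12, -1.31 and 0.18 untreated and -0.20, 0.56, 0.12 and 0.51 with LPS. With LPS the genotypes were apart, and without it only fld replicate 3 lay among the control arrays. The fibroblast marker Col1a2 read -0.15, -0.19, -1.12 and 0.17 on the untreated arrays labelled fld, also lowest on replicate 3 and highest on replicate 4, and its part in the Cpt1b values was not tested. Cpt1b was higher by 1.40 with LPS (SE 0.29, limma adjusted p = 0.0037), a 2.63-fold level, and the difference without LPS was 0.85 (adjusted p = 0.118), or 1.15 (adjusted p = 0.022) when fld untreated replicate 3 was left out. A second Cpt1b probe, above background on all 16 arrays, differed by 0.20 with LPS and -0.29 without, so the probes of this gene disagree. Without the 2 arrays of replicate 4 labelled fld the LPS difference was 1.31 (adjusted p = 0.0107).

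**Figure D4:**
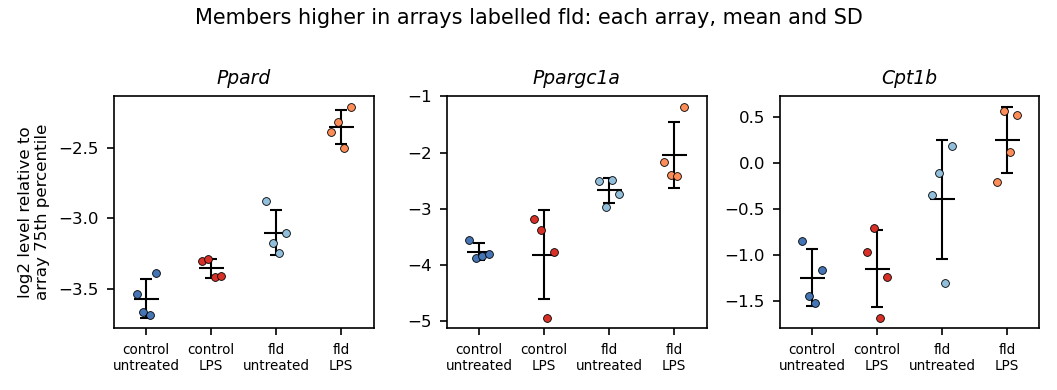
Log2 level relative to the array's 75th percentile of Ppard, Ppargc1a and Cpt1b on each array, with the group mean and SD as a black line and bar. For Ppard and Ppargc1a all arrays labelled fld lie above all control arrays, and for Cpt1b the LPS groups are apart.

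Acsl1 was the member called lower in LPS cells labelled fld, by 0.80 (SE 0.24, limma adjusted p = 0.0287), with the array values given above. The LPS groups overlapped at control replicate 3. Its other 2 probes differed by -0.63 and -0.53. The call ended without control LPS replicate 1, 2 or 4 or fld LPS replicate 1 or 4 (adjusted p 0.0577 to 0.0926), and the difference was -0.57 (adjusted p = 0.108) without the 2 arrays of replicate 4 labelled fld. Pdk4 was well above background on 0 of 4 control and 1 of 4 fld arrays with LPS, so its fitted difference of 1.23 (adjusted p = 0.0625) has no firm size. It passed without control LPS replicate 1 (adjusted p = 0.0266) or fld LPS replicate 3 (adjusted p = 0.0102). The other genotype differences with LPS that were not called lay between -0.42 (Decr1) and 0.57 (Acads). Centring each array on its median in place of its 75th percentile moved the median difference of all features between the LPS groups from 0.03 to -0.37. It turned the split of calls from 2807 higher and 160 lower to 1998 higher and 6451 lower, and gave 3 members higher (the same 3) and 13 lower. The member median difference at the 75th percentile scaling was -0.01.

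Other genes of the pathway, 91 measured of 106 listed, also had more calls lower than higher with LPS. In all, 32 fell and 10 rose in control cells and 37 fell and 11 rose in cells labelled fld (46.2% and 52.7% called). Of all features 29.4% were called in control cells (14.5% higher, 14.9% lower) and 39.6% in cells labelled fld (21.6% higher, 18% lower). All LPS changes named here without a p passed limma at an adjusted p under 0.05. Of 25 further mitochondrial and carnitine genes 13 fell and 0 rose in control cells, among them Mcee (-1.38), an epimerase of propionate breakdown, Echs1 (-1.18), the short-chain hydratase of the mitochondrial cycle, and Oxct1 (-0.90), which activates ketone bodies. In cells labelled fld 13 fell and 1 rose, with Mcee at -1.55, Echs1 at -1.27 and Oxct1 at -0.98. Of 17 further peroxisomal genes 9 fell and 1 rose in control cells, with Hsd17b4, the multifunctional enzyme, at -0.99, while the import receptor Pex5 rose by 0.66. In cells labelled fld 10 fell and 1 rose, with Hsd17b4 at -1.14 and Pex5 at 0.67. Of 16 further PPAR targets 1 fell and 3 rose in control cells, and 2 fell and 4 rose in cells labelled fld. Their shares called, 25% and 37.5%, lay below those of all features. The scavenger receptor gene Cd36 fell by 1.54 and 1.07, and Hilpda, an inhibitor of triglyceride lipolysis, rose by 2.08 and 2.69. Of 21 regulators 5 fell and 4 rose in control cells, with the receptor Nr1h3 (LXRα) at -1.45 and the coactivator Ncoa1 at -0.88, and 7 fell and 3 rose in cells labelled fld, with Nr1h3 at -1.28 and Ncoa1 at -1.07. Of 12 genes of pyruvate dehydrogenase control, uncoupling and acyl-CoA handling 4 fell and 2 rose, and 5 fell and 2 rose, with the acetyl-CoA synthetase gene Acss2 at -2.01 and -1.22 and the fatty acid transporter gene Slc27a4 at 1.22 and 1.16. Between genotypes 2 of the 91 were called without LPS (2.2%, against 5.08% of all features), the lipid droplet genes Plin5 (0.78) and Cidec (1.01), and 5 with LPS (5.49%, against 17%), all higher in cells labelled fld: Cyp4a14 (1.57), Plin5 (1.0999), Pdk2 (0.92), Plin4 (0.58) and Prkaa2 (0.57).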

How the data were processed

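RNA of 16 samples was hybridised to 1-colour Agilent arrays. Each deposited scanner file holds spot intensity, which the authors' software (Agilent Feature Extraction 9.5.1.1, array design 014868, per the file headers) had corrected for background. The value table the authors deposited, set against the scanner files, holds the ratio of that intensity to each array's median.

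Control spots were dropped, spots with outlier flags (1.34% of values) were set to missing, and log2 of the intensity minus the array's 75th percentile was taken. Probes well above background on all 4 arrays of some group were kept (25535 of 41174), and a gene's brightest probe stood for it. Comparisons used limma 3.58.1 (R 4.3.3; lmFit, eBayes, 1 mean per group), two-sided, with Benjamini-Hochberg adjustment over 17466 features in each of 5 comparisons. The script was tested on simulated data. The labels do not tie arrays to mice, so p-values measure the spread between these samples, which may be technical. The number of arrays limits the precision.

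Members and gene lists were chosen with earlier results of these data known. By the naming rule, all 37 members are accounted for, those called in any comparison get every array value, and further pathway genes are counted, with named examples. The alternatives (29) are under the closing part on processing.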

Additional observations from a re-analysis of the deposited data

Results flagged for a closer look

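Of 139 groups of 4 values among the measured genes, 4 (2.88%) held an array far from the other 3, where the critical value used (Dixon's) lets chance give about 1 in 20. Cpt1a read 0.97 on control untreated replicate 2, against 1.34 to 1.41 on the others, and this array still lay far above every LPS array. Acads read -2.35 on fld untreated replicate 4, against -0.05 to 0.25. Etfb read 3.63 on fld LPS replicate 3, against 3.47 to 3.49. Ppargc1b read -0.18 on control untreated replicate 3, against -0.61 to -0.55, and its fall with LPS in control cells was called under all 29 alternatives.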

How the results depend on the processing

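Across 29 alternatives, 10 of the 16 calls with LPS in control cells held in each (Acaa2, Acadm, Acox3, Acsl1, Acsl4, Cpt1a, Ech1, Hadh, Pparg and Ppargc1b), 8 of 19 in cells labelled fld (Acaa1a, Acaa2, Acadm, Acox3, Cpt1a, Ech1, Hadh and Ppard) and 3 of 4 between the LPS groups (Cpt1b, Ppard and Ppargc1a). The untreated genotype count of 1 (Ppard) became 0 with normexp, quantile normalization, median centring, the 75th percentile over probes detected on all arrays, the deposited value table and a mean-variance trend, and 2 with only the 2 groups compared or without both arrays labelled fld replicate 4. The LPS genotype count of 4 became 16 with median centring and with the deposited value table, under which Acsl4 reversed there to -0.37. Most alternatives keep the same probe of a gene, and the second Cpt1b probe differed by only 0.20 between the LPS groups. The probe to the RefSeq transcript of Ppargc1a was well above background on 0 of 16 arrays. Normexp reversed the changes with LPS in cells labelled fld of Decr1 (0.35), Ehhadh (0.047) and Ppara (0.20), all dim. Without fld untreated replicate 4 the Acads change with LPS in cells labelled fld reversed to -0.55 (-0.55 to 0.31 over single arrays left out), and without both arrays of replicate 4 to -0.40, with 0.55 between untreated genotypes; their causes were not tested. Leaving out 1 array gave 13 to 17 calls with LPS in control cells, 13 to 20 in cells labelled fld, 0 to 2 and 3 to 5 between genotypes without and with LPS, and 0 to 0 for the difference between responses. The shares of all features then called were, in that order, 23.8% to 33.7%, 30.5% to 41.6%, 2.03% to 9.25%, 12.2% to 18.6% and 0% to 0.00573%.

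Median centring turned all calls from 3778 higher and 3142 lower to 1965 and 4665 with LPS in cells labelled fld (feature median 0.06 to -0.18; members 1 higher and 19 lower), and from 850 and 37 to 651 and 113 between untreated genotypes. Between the LPS groups all calls rose from 2967 to 8449, and 7 features, no member among them, were called for the difference between responses.

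Whether replicate numbers pair the samples is not known, and they were not used as pairs: deviations of same-numbered untreated and LPS arrays correlated at 0.16, 0.09, 0.26 and 0.09 in control cells and -0.08, -0.09, -0.10 and 0.20 in cells labelled fld. With the replicate block the counts were 16, 19, 1, 4 and 0, as without it, though with LPS in cells labelled fld Cpt2 was lost (adjusted p = 0.0556) and Cpt1b gained (0.65, adjusted p = 0.0473). In the same order, 30.3%, 41.2%, 6.92%, 17.6% and 0.0573% of all features were called with the block. Without it the shares were 29.4%, 39.6%, 5.08%, 17% and 0%. For the difference between responses the block gave 10 calls over all features, against 0.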
